A study of Mus musculus with 6 samples.

Results

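Odorant receptors are G protein-coupled receptors of olfactory sensory neurons, and each neuron of the main olfactory epithelium makes RNA of 1 receptor gene out of a very large family. The genes described here are the odorant receptors numbered Olfr1507 to Olfr1512, which stand side by side on mouse chromosome 14 and are known as the MOR28 cluster, and Olfr743, which stands in another stretch of odorant receptor genes on the same chromosome. They were taken by symbol: every probe set whose platform annotation named only 1 of these genes. That gave 7 of the 1088 measured odorant receptor genes, with 8 of the 41345 probe sets on the array, of which Olfr743 had 2. The measured differences of Olfr1508 and Olfr743 between the genotypes were known when the genes were chosen, and the others were taken as the numbered neighbours of Olfr1508. The differences of these 7 genes are therefore given as a description, without a test.

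The samples were vomeronasal organs (VNOs), the pheromone-sensing organs of the nasal septum, of 3 wild-type and 3 AP-2e null mouse samples at postnatal day 17, with 1 Affymetrix whole-transcript array per sample. AP-2e is the transcription factor made by Tfap2e. The construction of the null allele and the number of animals behind each sample were not given in the sources used here. The samples are called biological replicates in their titles. The p-values set each difference between the genotypes against the spread between samples of the same genotype, moderated over all genes. Whether this is a spread between single animals is not known. Values are log2 signals made by RMA, and a difference of 1 is a 2-fold change. RMA gives no detection call. As a guide to dimness, over all probe sets and arrays the lower quartile was 3.62 and the median 5.05. Precision is limited by the number of arrays.

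Tfap2e had a log2 signal of 6.46, 6.76 and 6.92 in wild-type replicates 1, 2 and 3. In the 3 AP-2e null samples, in the same order, it was 5.97, 6.09 and 6.04. Every null array was below every wild-type array, and the difference of -0.68 (SE 0.13) had an adjusted p of 0.431 in limma over all genes. All 4 markers of VNO sensory neurons lay above the overall median on all arrays. Gnai2, a G protein subunit of the apical neurons, lay between 10.52 and 10.84, Omp, a protein of mature sensory neurons, between 9.46 and 10.48, and Trpc2, the transduction channel, between 6.75 and 7.08. Gnao1, the G protein subunit of the basal neurons, stood at 10.45, 10.38 and 10.77 in the wild-type and at 9.79, 9.88 and 9.90 in the null samples (difference -0.68, adjusted p = 0.331 in limma). The mean of the 4 VNO neuron markers lay between 9.43 and 9.75 in wild-type and between 9.20 and 9.39 in AP-2e null samples. Some markers of another tissue, the main olfactory epithelium, differed widely between arrays within both genotypes. Cyp2g1, a P450 enzyme of its supporting cells, stood at 4.33, 10.13 and 7.41 in wild-type replicates 1, 2 and 3, and at 7.27, 9.70 and 10.01 in the null replicates. S100a5, a calcium-binding protein of its sensory neurons, stood at 4.20, 8.62 and 6.55 and at 5.60, 7.72 and 8.27. Wild-type replicate 1 was thus the lowest array for both genes and wild-type replicate 2 the highest. Cyp1a2 and Ermn, the other listed markers of supporting cells, were also highest on wild-type replicate 2 (6.16 and 5.38). Their lowest array was AP-2e null replicate 1 (4.23 and 3.38). Their differences were 0.18 (SE 0.63) and -0.05 (SE 0.62), against 1.71 (SE 1.59) for Cyp2g1. Cngb1 and Rtp2, also listed as markers of these sensory neurons, varied less, between 6.78 and 7.09 and between 8.08 and 8.46. On wild-type replicate 1 they stood at 6.95 and 8.24, so they did not follow Cyp2g1 and S100a5. Which cells their signal came from was not tested. In RNA of a whole organ, a different number of cells of a type and a different amount of RNA per cell cannot be told apart.

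In the main olfactory epithelium the MOR28 cluster is a textbook case of receptor gene choice. An enhancer beside it, the H element, acts on the nearby receptor genes, and a neuron that makes one receptor keeps the others silent. Odorant receptor promoters are known for sites of homeodomain proteins such as Lhx2 and of Ebf proteins. Transcripts of some odorant receptors have also been found in neurons of the VNO.

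In the RefSeq gene table (assembly GRCm38.p6) the cluster runs in the order Olfr1512, Olfr1511, Olfr1510, Olfr1509, Olfr1508, Olfr1507, with no other measured gene in between. Olfr743 lies apart from it, with 55 measured genes in between, 9 of them odorant receptors. The table's synonyms put Olfr1507 (MOR28), Olfr1508 (MOR10) and Olfr1509 (MOR83) in receptor family MOR244, which has 3 genes in all. Olfr1510, Olfr1511 and Olfr1512 belong to family MOR223, which has 9 genes, and Olfr743 to family MOR106, which has 13. This order serves only to name neighbours, as no genome build of the array was stated.

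The RefSeq promoter table (GRCm38.p6) matched 5 of the 7 genes. The 250 bases before the start of the gene model are shown for Olfr1508, the member with the largest difference, and for its neighbour Olfr1509 of the same receptor family. The window of Olfr1508 is chr14:52467462-52467711 on the minus strand and that of Olfr1509 is chr14:52450143-52450392 on the plus strand. Capitals mark matches to TAATNA, a core of homeodomain sites, searched on both strands.

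Olfr1508: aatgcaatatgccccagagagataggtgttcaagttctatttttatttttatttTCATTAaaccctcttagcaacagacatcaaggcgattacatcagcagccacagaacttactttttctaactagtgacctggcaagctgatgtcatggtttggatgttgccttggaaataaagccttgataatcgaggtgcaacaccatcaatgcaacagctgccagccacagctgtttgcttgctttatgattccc
Olfr1509: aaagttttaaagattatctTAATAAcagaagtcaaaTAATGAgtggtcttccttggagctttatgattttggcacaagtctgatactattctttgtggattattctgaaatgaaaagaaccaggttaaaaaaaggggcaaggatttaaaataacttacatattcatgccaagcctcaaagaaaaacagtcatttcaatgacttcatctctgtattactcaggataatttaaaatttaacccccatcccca

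The Olfr1508 window held 1 match, starting 196 bases before the gene's start, in the reverse direction. The Olfr1509 window held 2, starting 231 and 214 bases before it. Among the other windows, those of Olfr743 and Olfr1510 held the motif and that of Olfr1511 did not. TAATNA stood in 64.0% of 944 odorant receptor promoters and in 24.3% of all 32851 promoters of the table, in windows of the same length. Neither CCCNNGGG, a core of Ebf sites, nor GCCNNNGGC, a site of AP-2 proteins, stood in any of the 5 windows. They stood in 2.75% and 1.69% of odorant receptor promoters and in 11.8% and 13.7% of all promoters. TAATNA shares no overlap with the other motifs in these windows, and a match is a string of letters, not a measured site.

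Olfr1508, the receptor also called MOR10, was far higher in the AP-2e null VNOs. Its log2 signal was 5.68, 4.12 and 4.57 in wild-type replicates 1, 2 and 3. On the null arrays it was 8.77, 8.76 and 8.59. The groups did not overlap, and the lowest null array stood 2.91 above the highest wild-type array, a 7.51-fold gap. The mean was 4.79 ± 0.81 in wild-type and 8.71 ± 0.10 in null samples (SD, n = 3 each). The genotypes thus differed by 3.92 (SE 0.40), or 15.1-fold. This was the largest positive difference of all 22180 genes, and the next odorant receptor, Olfr124, stood at 1.83 (SE 1.51). The wild-type arrays spread over 1.57 and the null arrays over 0.17, and 1.20% of genes had a larger SD in wild-type samples, against 53.4% in null samples. When wild-type replicate 1, the brightest wild-type array for this gene, was left out, the difference was 4.36, the largest with any single array left out.

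The markers of the main olfactory epithelium did not order the arrays as Olfr1508 did. The 7 measured of 9 markers of its sensory neurons had mean signals of 6.16, 7.61 and 6.92 in wild-type replicates 1, 2 and 3, and of 6.63, 7.30 and 7.35 in the null replicates. None of them was listed at 0, and Cnga2, a subunit of the channel that opens on odorant stimulation, stood between 3.36 and 5.75. The marker mean moved mainly with Cnga2, Gnal (4.35 to 7.55) and S100a5 (4.20 to 8.62). The other markers varied less: Cngb1 6.78 to 7.09, Pde1c 6.37 to 6.73, Rtp2 8.08 to 8.46 and Umodl1 9.16 to 9.95. Whether the mean of all 7 follows the amount of this tissue was not tested. AP-2e null replicate 1 had a lower marker mean than wild-type replicates 2 and 3, and an Olfr1508 signal of 8.77 against 4.12 and 4.57 there. Wild-type replicate 2 had the highest marker mean and the lowest Olfr1508 signal. With the marker mean as a covariate, a fit added after the data were seen, the difference of Olfr1508 was 4.09. These are the arrays by which Olfr1508 was chosen, and the part of the markers in its difference was not tested.

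Olfr1507, the receptor also called MOR28, was slightly higher on each null array. Its signal was 3.66, 4.13 and 4.38 in the wild-type and 4.61, 4.45 and 4.78 in the null replicates. The groups did not overlap, but the gap between the nearest arrays was only 0.07. The mean was 4.06 ± 0.37 in wild-type and 4.61 ± 0.17 in null samples (SD, n = 3 each), so that they differed by 0.56 (SE 0.20), or 1.47-fold. All 6 values lay below the overall median, and the difference ranked 29 among odorant receptors.

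Olfr1509, the receptor also called MOR83, varied between arrays within both genotypes. Its signal was 3.67, 5.32 and 3.49 in the wild-type and 4.06, 5.13 and 5.15 in the null replicates. The groups overlapped, and the highest value was that of a wild-type array. The difference of 0.62 had an SE of 0.58, with means of 4.16 ± 1.01 and 4.78 ± 0.62 (SD, n = 3 each). The same 3 arrays were the brightest for Olfr1509 and for the mean of the main olfactory epithelium neuron markers. They came in the same order: wild-type replicate 2, AP-2e null replicate 3, AP-2e null replicate 2. With the marker mean as a covariate the difference of Olfr1509 was 0.38, and without wild-type replicate 2 it was 1.20. The markers' part in the values of this gene was not tested. As with many receptor genes, related sequences can share probes, so values of single members of family MOR244 are uncertain.

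The members of family MOR223 overlapped between the genotypes. Olfr1512 stood at 5.28, 4.74 and 4.76 in the wild-type and at 5.32, 5.05 and 4.80 in the null replicates, a difference of 0.13 (SE 0.20). Olfr1511 stood at 2.17, 2.06 and 3.15 and at 3.33, 2.57 and 2.57, a difference of 0.37 (SE 0.37). Olfr1510 stood at 1.10, 1.10 and 1.37 and at 1.10, 0.97 and 1.25, a difference of -0.08 (SE 0.11). These differences were about as large as their SE or smaller. Olfr1510 and Olfr1511 lay below the overall lower quartile on all 6 arrays, where a change may be hidden in background signal.

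**Figure D1:**
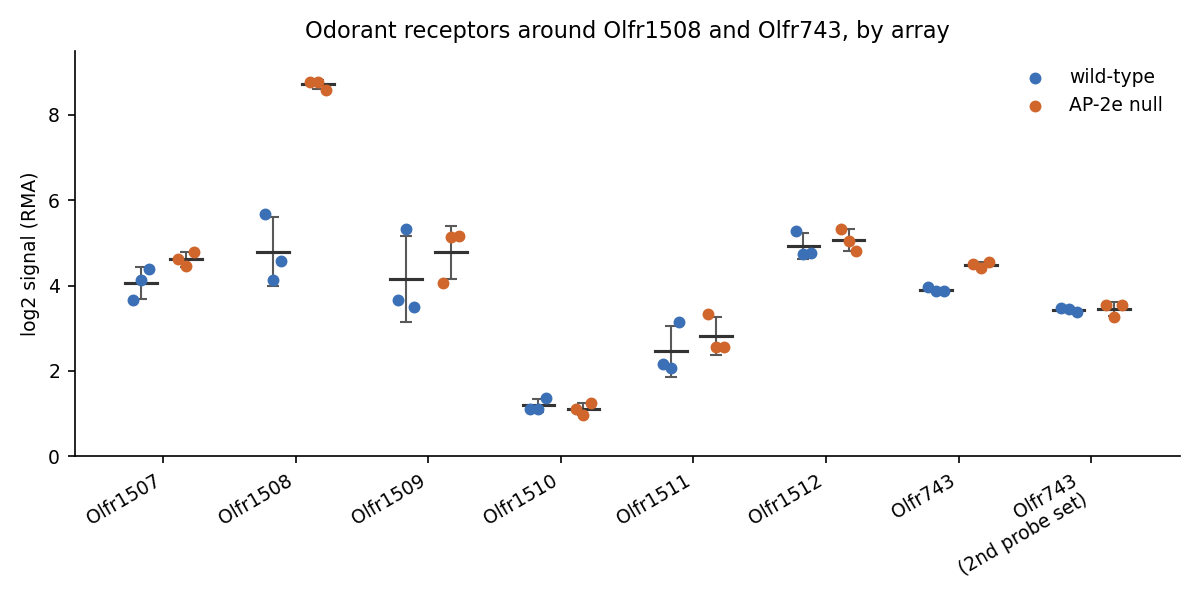
Log2 signal of each probe set on each array, with wild-type samples in blue and AP-2e null samples in orange. Points are single arrays, horizontal lines are means and bars are SD over 3 arrays, and levels of different probe sets cannot be compared with each other. For Olfr1508 the null arrays sit between 8.59 and 8.77 and the wild-type arrays between 4.12 and 5.68, while the groups overlap for Olfr1509 to Olfr1512.

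Olfr743 gave different values on its 2 probe sets. On the brighter probe set, which stood for the gene in the fit, the signal was 3.96, 3.87 and 3.86 in the wild-type and 4.51, 4.41 and 4.55 in the null replicates. The groups did not overlap, with a gap of 0.46 between the nearest arrays. The mean was 3.89 ± 0.05 in wild-type and 4.49 ± 0.07 in null samples (SD, n = 3 each), so that they differed by 0.60 (SE 0.06), or 1.51-fold. The other probe set stood at 3.48, 3.44 and 3.39 in the wild-type and at 3.54, 3.26 and 3.55 in the null replicates, so its groups overlapped and its difference was 0.02 (SE 0.09). It lay below the overall lower quartile on all 6 arrays. The mean of both probe sets gave a difference of 0.31.

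Across the 7 genes, 6 had positive differences, where 49.4% of all genes did, and the median difference was 0.56 against 0.01 over all 1088 odorant receptors. The null arrays were all above the wild-type arrays for 3 of the 7 genes, where 3.42% of all genes had that pattern, and for 0 of them were the null arrays all below. Olfr1508 and Olfr743, chosen by this contrast, were among these 3 genes, and the nearest arrays of Olfr1507 lay only 0.07 apart. The counts and the median of the 7 genes are therefore a description, and nothing is read from them. Olfr1508 and Olfr743 passed the threshold of the fit, a Benjamini-Hochberg adjusted p under 0.05 in limma. This is what they were chosen by, and nothing is read from it here. Of all 22180 genes 0.225% passed, 0.00902% as higher and 0.216% as lower. As higher, 2 genes passed with all arrays, 1 without wild-type replicate 1, AP-2e null replicate 1 or AP-2e null replicate 3, and 0 without any one of the other arrays. For the 5 genes of the cluster other than Olfr1508 the median difference was 0.37. Of all odorant receptors, 41 had differences of at least 0.5 and 19 had differences of -0.5 or lower, so differences of the size of Olfr1507, Olfr1509 and Olfr743 were found in other receptors as well.

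**Figure D2:**
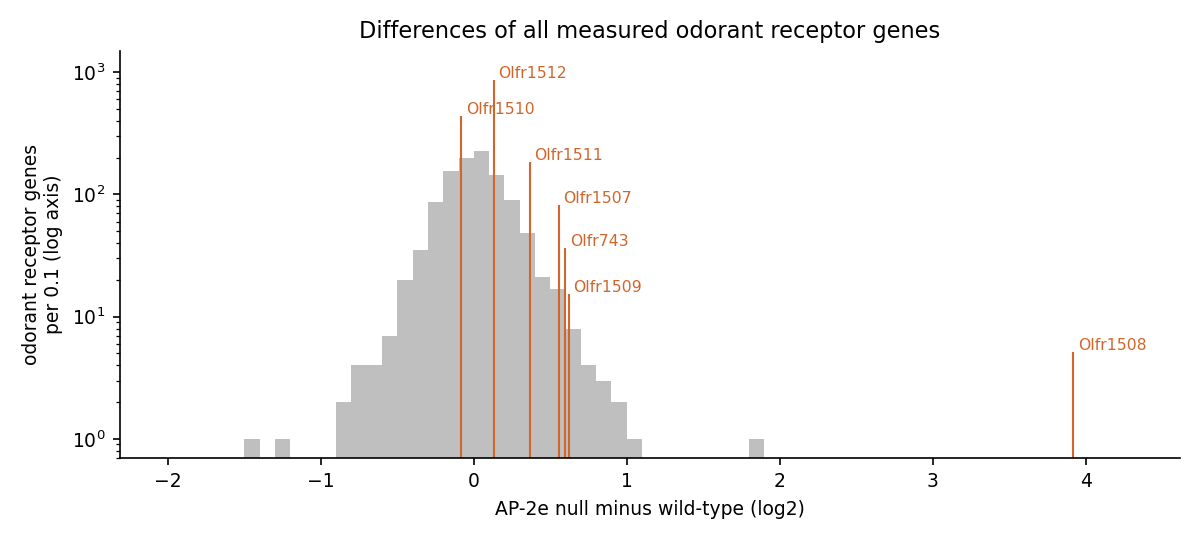
Number of odorant receptor genes (log axis) by the difference AP-2e null minus wild-type in log2 signal, in steps of 0.1. Grey bars are the 1081 other odorant receptor genes and orange lines mark Olfr1507 to Olfr1512 and Olfr743, whose line heights carry no value. Olfr1508 stands alone at 3.92 and the other marked genes lie between -0.08 and 0.62.

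The genes around the cluster were tested in the same fit, and none passed. Only 0.225% of all genes did, so a count of 0 in a short list says little. Of the 15 nearest measured genes on each side, 0 of 30 passed in limma, and 0 had an unadjusted p under 0.05, where 4.40% of all genes did. Their differences lay between -0.23 and 0.43 with a median of 0.03. On the side of Olfr1512 the nearest were Olfr1513, an odorant receptor of family MOR223, at -0.05 (SE 0.18), Sall2, a zinc finger transcription factor, at 0.10 (SE 0.08), and Tox4, an HMG-box protein, at -0.04 (SE 0.07). On the side of Olfr1507 they were the T cell receptor alpha segments Trav9d-3 at -0.04 (SE 0.05), Trav14d-3-dv8 at 0.43 (SE 0.23) and Trav7-4 at 0.04 (SE 0.11). The extremes of this group were Trav14d-3-dv8, Rab2b at 0.24 and Gm16617 at 0.19 among the higher genes, and Rem2 at -0.23, Trav3-4 at -0.22 and Olfr49 at -0.21 among the lower ones. Olfr1513, the odorant receptor just outside the numbered run, stood at 1.82, 2.18 and 1.74 in the wild-type and at 1.80, 1.63 and 2.14 in the null replicates.

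Around Olfr743 the differences were wider, and again 0 of 30 genes passed in limma, where 0.225% of all genes did. An unadjusted p under 0.05 was found for 4 of them, or 13.3%, against 4.40% of all genes. The nearest on either side were Olfr742 at -0.15 (SE 0.15) and Olfr744 at -0.09 (SE 0.09), then 4930413M19Rik at 0.04 and Olfr741 at 0.47 on the side of Olfr742, and Olfr745 at 0.28 and Olfr746 at -0.53 on the other. The extremes were Olfr736 at 0.80, Olfr733 at 0.49 and Olfr741 at 0.47 among the higher genes, and Olfr746, Pnp2 at -0.24 and Pip4p1 at -0.23 among the lower ones. Olfr736, of the same family MOR106, stood at 4.77, 3.95 and 3.93 in the wild-type and at 5.25, 4.85 and 4.96 in the null replicates, without overlap (difference 0.80, SE 0.26, adjusted p = 0.873 in limma). Olfr746, also of this family, stood at 1.89, 2.10 and 2.40 and at 1.51, 1.72 and 1.56, without overlap in the other direction (difference -0.53, SE 0.14, adjusted p = 0.873 in limma). Olfr746 lay below the overall lower quartile on all 6 arrays, where values may be mostly background signal. Differences of both signs were found in this family. Of the 12 other genes of family MOR106, 8 had positive and 4 negative differences, with a median of 0.11. None passed in limma (0 of 12), and 3, or 25%, had an unadjusted p under 0.05, against 4.40% of all genes. These 3, Olfr736, Olfr741 and Olfr746, are also among the 4 counted beside Olfr743. Of the 6 other genes of family MOR223, 4 had positive and 2 negative differences, with a median of 0.12, and 0 passed in limma or had an unadjusted p under 0.05.

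**Figure D3:**
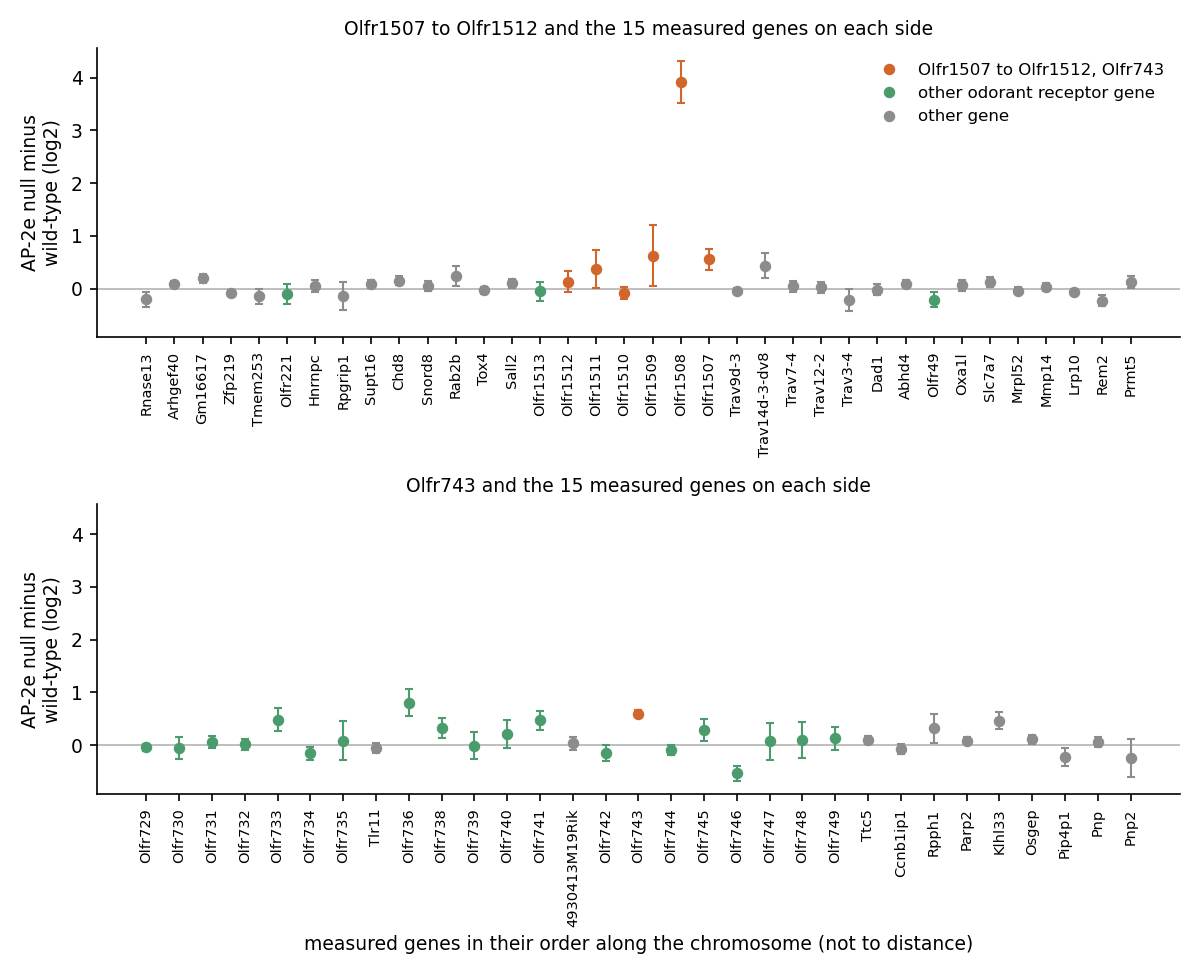
Difference AP-2e null minus wild-type in log2 signal for each gene, with bars for the SE of the fit, in gene order and not to distance. The upper panel holds the cluster with 15 measured genes on each side and the lower panel Olfr743 with 15 on each side. Olfr1508 stands at 3.92 between neighbours at 0.62 and 0.56, and the next largest gene shown, Olfr736, stands at 0.80.

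The remaining odorant receptor genes of chromosome 14 held no gene past the threshold, which 0.225% of all genes passed. Of 32, 19 had positive and 13 negative differences, with a median of 0.06. In limma 0 passed, and 4, or 12.5%, had an unadjusted p under 0.05, against 4.40% of all genes. Olfr736, Olfr741 and Olfr746 are again among these, so this share is not separate from those of the neighbours of Olfr743 and of family MOR106. The null arrays were all above the wild-type arrays for 2 of them and all below for 1, where 3.42% and 3.64% of all genes had these patterns. The largest positive differences were those of Olfr736 at 0.80, Olfr724 at 0.49 and Olfr733 at 0.49. The largest negative ones were those of Olfr746 at -0.53, Olfr49 at -0.21 and Olfr734 at -0.16.

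Olfr124, the odorant receptor with the second largest difference, was named after its values were seen. It stood at 2.37, 7.97 and 6.72 in the wild-type and at 6.40, 7.74 and 8.41 in the null replicates, so its groups overlapped and wild-type replicate 1 was the lowest array (adjusted p = 0.873 in limma). Its difference of 1.83 had an SE of 1.51, and unlike Olfr1508 it had 2 wild-type arrays within the range of the null arrays.

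**Figure D4:**
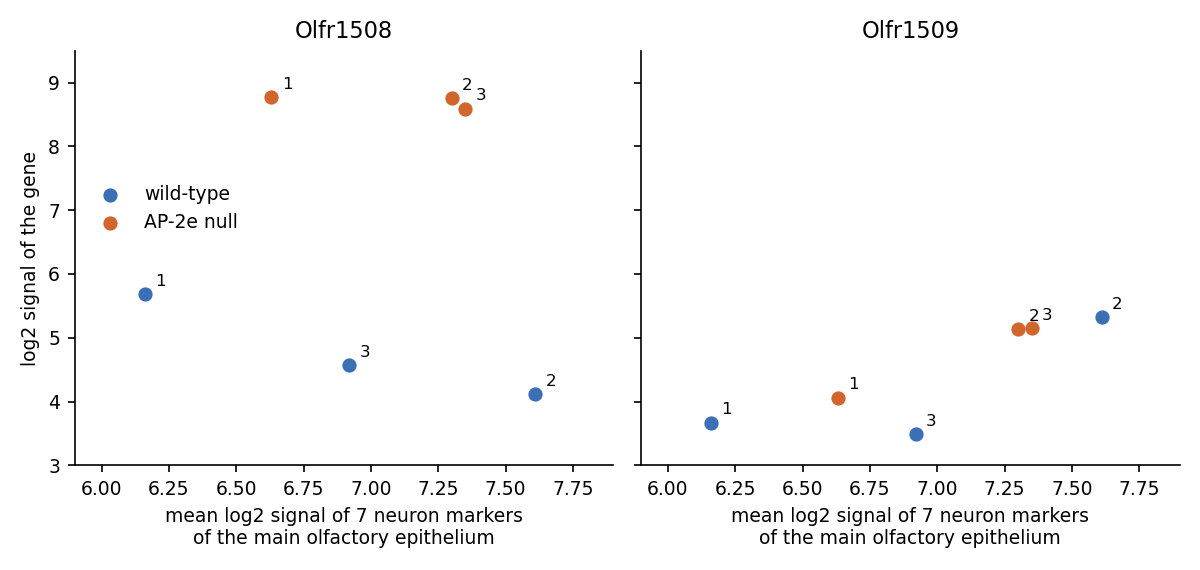
Log2 signal of Olfr1508 and Olfr1509 against the mean log2 signal of 7 sensory neuron markers of the main olfactory epithelium, with 1 point per array and the replicate number beside it. Wild-type samples are blue and null samples orange. The marker mean moves mainly with Cnga2, Gnal and S100a5. Olfr1508 is between 8.59 and 8.77 on all null arrays at marker means from 6.63 to 7.35, and Olfr1509 is above 5 only on the 3 arrays with the highest marker means.

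Genes that odorant receptors work with were measured on the same arrays, and 0 of them passed. Only 0.225% of all genes did, so little can be read from these counts of 0. Of the 12 measured of 14 genes of olfactory transduction, 5 had positive and 7 negative differences, with a median of -0.08. In limma 0 passed, and 1, or 8.33%, had an unadjusted p under 0.05, against 4.40% of all genes. The null arrays were all below the wild-type arrays for 3 of the 12, Gnb1, Ano2 and Omp, a pattern of 3.64% of all genes. Ano2, the chloride channel that amplifies the odorant response, was at -0.40 (SE 0.09), with adjusted p = 0.705 in limma. Gnal, the G protein subunit that couples odorant receptors to adenylyl cyclase, was at 0.58 (SE 0.94), with 4.35, 7.55 and 5.88 in the wild-type and 5.24, 7.14 and 7.12 in the null replicates. Cnga2 was at 0.75 (SE 0.67), Cnga4 and Cngb1, the other subunits of its channel, at -0.11 and -0.15, and Omp at -0.41. Gnal and Cnga2 were brightest on wild-type replicate 2, as was Olfr1509.

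Of the 4 genes of receptor transport to the cell surface, 0 passed in limma, against 0.225% of all genes. An unadjusted p under 0.05 was found for 1, or 25%, against 4.40% of all genes. Rtp1, which helps odorant receptors reach the membrane, stood at 10.59, 10.40 and 10.45 in the wild-type and at 10.97, 10.82 and 10.97 in the null replicates. Every null array was above every wild-type array, and the difference of 0.44 (SE 0.08) had an adjusted p of 0.370 in limma. Its partner Rtp2 was at -0.08, Reep1 at 0.05 and Reep6 at 0.06.

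Regulators of odorant receptor gene choice differed little. Of 13 genes, 8 had positive and 5 negative differences, between -0.23 and 0.10 with a median of 0.02. In limma 0 passed, against 0.225% of all genes, and 0 had an unadjusted p under 0.05, against 4.40%. Lhx2, the homeodomain protein that binds receptor enhancers, was at 0.03 (SE 0.07), and Ldb1, its bridging cofactor, at 0.06 (SE 0.06). Ebf1, Ebf2, Ebf3 and Ebf4, which bind beside Lhx2, were at 0.02, 0.05, -0.09 and 0.10, and the homeodomain protein Emx2 at -0.15. Kdm1a, the histone demethylase that permits receptor choice, was at -0.02, and Atf5, a factor of the feedback that follows it, at -0.23.

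The genes most like Olfr1508 over the 6 arrays were sought among 2152 named genes whose SD over the arrays was at least 0.3. By Pearson's r these were Vmn1r73 (r = 0.981), Olfr743 (0.978), Vmn1r84 (0.966), Vmn1r82 (0.953) and Pou2af1 (0.939). The Vmn1r genes code for V1R receptors of apical VNO neurons, and Pou2af1 for a transcriptional coactivator of B cells. Their differences were 1.54, 0.60, 1.14, 1.07 and 0.58, and all had null arrays above all wild-type arrays. Most of the variation of Olfr1508 lay between the genotypes, so this measure favours genes with separate groups. Olfr743 was itself chosen by that contrast. Vmn1r73 stood at 6.89, 6.38 and 6.61 in the wild-type and at 8.14, 7.96 and 8.39 in the null replicates. It had the order of Olfr1508 among the wild-type arrays but not among the null arrays. Vmn1r84, Vmn1r82 and Pou2af1 had that wild-type order as well, and Olfr743 did not. With each genotype's mean taken off, the likest genes were V1ra8 (r = 0.994), Ube2t (0.992), Fpr-rs3 (0.987), Vmn1r209 (0.986) and Kif15 (0.982). These values are descriptions over 6 arrays that share 1 normalization, and all 5 of these genes had their highest wild-type value on wild-type replicate 1, as Olfr1508 did. With the means taken off, Olfr1508 varied almost only among the wild-type arrays, so that shared peak follows from the measure.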

How the data were processed

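Total RNA of 6 VNO samples was labelled with biotin for Affymetrix whole-transcript arrays, per the labels' protocols. The deposited table holds log2 signals, 1 per probe set and array, made by the authors with RMA and the Transcriptome Analysis Console, per the submitters' processing notes. Their versions were not given in the sources used here. Of the 41345 probe sets, 23521 had 1 gene in the platform annotation, 1814 several and 16010 none. The 1-gene probe set with the highest mean stood for each of 22180 genes. The genotypes were set against each other in limma 3.58.1 under R 4.3.3 (lmFit, eBayes, 2-sided, no covariate, no filter on dim genes), with Benjamini-Hochberg adjustment over all genes and a threshold of 0.05. Scripts were tested on simulated data. The median of the arrays lay between 4.997 and 5.079.

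The genes, lists and tests were chosen with earlier results of these data known. Besides the genes chosen, the text names Tfap2e, list members, and of the neighbours and chromosome 14 receptors those past the threshold, the 3 nearest on each side and the 3 largest differences in each direction. It also names the 5 genes most like Olfr1508 over the arrays by each of 2 measures, and Olfr124, chosen after its values were seen. A planned ranking of receptors by protein identity was replaced by the RefSeq receptor families, chosen after seeing the data. Of the listed genes, no 1-gene probe set was found for Gng13 and Adcy3. The alternatives were other variance moderation, other handling of probe sets, leaving out the dimmest 30% of genes, centring on medians, a second quantile normalization, the replicate number as a block, each array left out, a motif search on the forward strand only and, added later, a covariate for markers of the main olfactory epithelium. Figures come from matplotlib 3.10.9 (Python 3.11.15).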

Additional observations from a re-analysis of the deposited data

How the results depend on the processing

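With the replicate number as a block, 0 genes were higher and 22 lower past the threshold, against 2 and 48. The sample titles gave same-numbered samples only a number in common. Their deviations from the genotype means correlated at 0.0401, 0.110 and 0.0187. No wild-type replicate correlated best with the null replicate of its own number, and of the null replicates only replicate 2 correlated best with its own. Whether same-numbered samples shared more than the number was not tested. The number of higher genes was 1 with probe sets of a gene averaged and with each probe set tested alone, and 4 with repeated quantile normalization. With single arrays left out it lay between 0 and 1, and the number of lower genes between 17, with wild-type replicate 2 left out, and 32, with wild-type replicate 3 left out. The count of genes past the threshold among neighbours, other chromosome 14 receptors and the pathway lists was 0 in every alternative run. Few of all genes passed in any run, so lists this short were likely to hold 0 in each.

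With single arrays left out, the difference of Olfr1508 lay between 3.58 and 4.36, that of Olfr743 between 0.57 and 0.64, that of Olfr1507 between 0.36 and 0.72, that of Olfr1509 between 0.28 and 1.20, that of Olfr1511 between 0.11 and 0.71, and that of Olfr1512 between 0.00 and 0.31. That of Olfr1510 lay between -0.15 and 0.01, with the positive value without wild-type replicate 3, and that of Olfr1512 was near 0 without AP-2e null replicate 1. Olfr1507, Olfr1509, Olfr1510, Olfr1511 and Olfr743 are among the dimmest 30% of genes, so that alternative gave no value for them. The difference of Olfr743 was 0.31 with the mean of its probe sets and 0.02 on its second probe set, and the cause was not tested. In the other alternatives, Olfr1508 lay between 3.92 and 4.09, and the difference of each of the 7 genes moved by less than its SE. On the forward strand alone, TAATNA stood in 15.9% of all and 46.4% of odorant receptor promoters, and the windows of Olfr1508 and Olfr743 held no match.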
